A study of Mus musculus with 4 samples.

Results

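The genes of the mouse major histocompatibility complex (MHC, called H2 in the mouse) and of antigen presentation were described across 4 RNA sequencing libraries of renal primary tubular epithelial cells. They were taken by name, as every gene symbol starting with H2- (26 genes; names marked as pseudogenes by -ps were to be dropped, and 0 occurred) together with B2m, Tap1, Tap2, Tapbp, Nlrc5, Ciita and Cd74. This gave 33 of the 18383 genes in the table. They were 13 class I heavy chain genes, 2 class I loci annotated as pseudogenes (H2-K2 and H2-Q5), 5 genes of the class I machinery, 9 class II chain genes, 2 class II partners (Cd74 and Ciita) and 2 genes that carry an H2 name but have another function (H2-Ke2 and H2-Ke6). In the RefSeq annotation of GRCm38.p6, 29 of the 33 lie on chromosome 17, between positions 33919478 and 37483554. The others are B2m on chromosome 2, Nlrc5 on chromosome 8, Ciita on chromosome 16 and Cd74 on chromosome 18.

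The KMS group (2 libraries) came from SETD2fl/fl MYCfl/fl KspCre/+ mice and the KM group (2 libraries) from MYCfl/fl KspCre/+ mice, so both groups carried the floxed MYC alleles and the Cre transgene and the floxed SETD2 alleles set them apart. All mice were of the C57BL/6 strain and 8 weeks old, and the cells were isolated from kidney cortex. In KspCre mice the promoter of kidney-specific cadherin, a gene of tubular epithelium, drives Cre. The SETD2 enzyme places the trimethyl mark on lysine 36 of histone H3. By its title the series set MYC+ cells that lack SETD2 against MYC+ cells that have it. The design text of the series names other genotypes and triplicates, and the sample labels were followed here.

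Total counts were 9780050 and 8886496 in the KMS libraries and 18639040 and 14955148 in the KM libraries, which makes the KM libraries 1.80 times as deep on average. Setd2 itself had 58.3 and 49.2 CPM (counts divided by the scaled library total and multiplied by 1e+06) in KMS and 54.3 and 58.1 CPM in KM, and its log2 fold change was -0.06 ± 0.17 (SE, adjusted p = 0.843 in edgeR). Which exons were floxed is not in the labels, so a count over the whole gene does not check the genotypes. Replicate 1 of each genotype was rich in the female RNA Xist (4363 counts in KMS and 12967 in KM), and replicate 2 of each had Y-linked RNA (1471 counts in KMS and 3410 in KM), so each group held a female and a male library. Markers of the proximal tubule were the highest of the marker lists in every library, summing over 6 genes to 13828 and 11904 CPM in KMS and 6848 and 4776 CPM in KM. RNA of leukocytes was present in all 4 libraries: 32 leukocyte markers summed to 362 and 214 CPM in KMS and to 496 and 880 CPM in KM. No marker among the deposited genes was at 0 in both libraries of a group. Adgre1, Zbtb46 and Ncr1 of the leukocyte lists were not among these genes, each of which had at least 10 counts over the 4 libraries. The libraries therefore hold transcripts of more than the labelled cell type, and fewer cells of a type and less RNA per cell cannot be told apart in such bulk samples.

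MHC class I molecules are made by nearly all nucleated cells. A heavy chain pairs with beta-2-microglobulin and displays peptides of cytosolic proteins, which the TAP transporter brings into the endoplasmic reticulum, to CD8+ T cells. Class II molecules are made mainly by dendritic cells, macrophages and B cells, and by some epithelia under interferon-gamma. Their alpha and beta chains assemble with the invariant chain (Cd74), which blocks the groove until H2-DM exchanges its remnant for peptides taken up from outside, for display to CD4+ T cells. The coactivators NLRC5 and CIITA drive class I and class II genes through a shared promoter module, the SXY module.

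Class II chain RNA was lower in both KMS libraries than in both KM libraries, and class I heavy chain RNA was at similar levels in the genotypes. The 9 class II chain genes together had 219 and 169 CPM in KMS and 242 and 547 CPM in KM, a log2 ratio of the group means of -1.03. The 13 class I heavy chain genes together had 1014 and 1150 CPM in KMS and 915 and 1220 CPM in KM, a log2 ratio of 0.02 (-0.12 with library totals as the scaling). The class II sum was thus 21.6% and 14.7% of the class I sum in KMS and 26.4% and 44.8% of it in KM, a log2 ratio of -0.98. For class I the groups overlapped. These sums were not tested, because the members were chosen with earlier results of these data known and because 2 against 2 libraries cannot give a two-sided exact permutation p under 0.333. The gap between the genotypes was set largely by KM replicate 2: without it the class II log2 ratio was -0.32, and the ratio of class II to class I was -0.54. Within the female pair of libraries the class II log2 ratio was -0.15, and within the male pair it was -1.70.

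**Figure D1:**
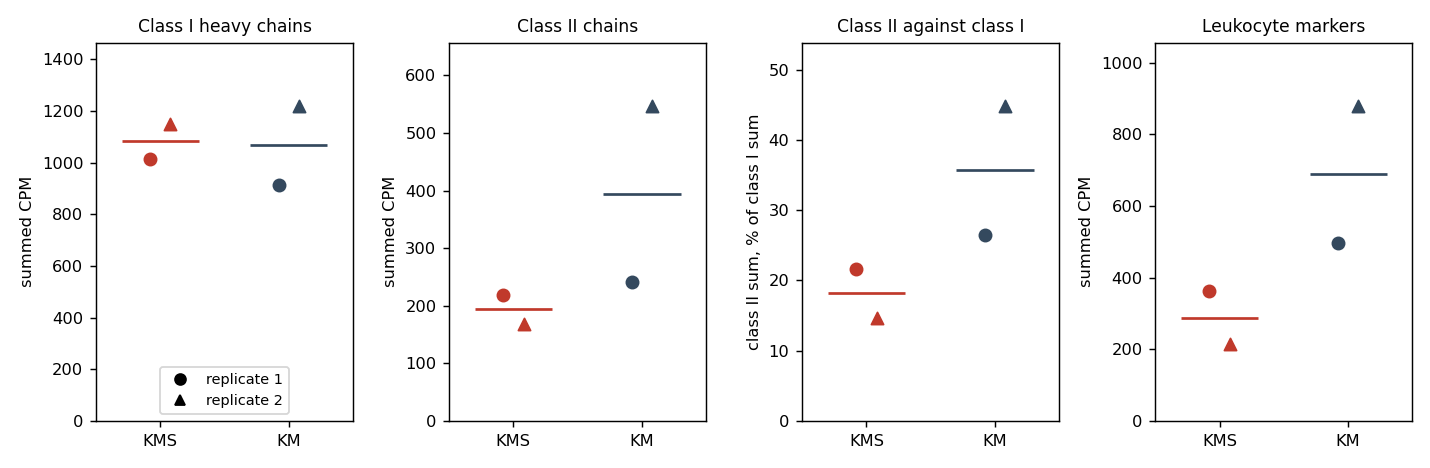
Summed CPM of 13 class I heavy chain genes, 9 class II chain genes and 32 leukocyte markers, and the class II sum as a percent of the class I sum, in each library (circles are replicate 1, triangles replicate 2, horizontal lines the group means). The class II sum and the leukocyte sum share their order, with KM replicate 2 highest (547 and 880 CPM) and KMS replicate 2 lowest (169 and 214 CPM), whereas the class I sums of the groups overlap.

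No member passed the test of KMS against KM. Of the 33 members, 29 had enough counts to be tested; H2-Q1, H2-Eb2, H2-DMa and H2-Oa did not. In the edgeR fit with genotype as its only term, 0 of the 29 had an adjusted p under 0.05, in a comparison that called 5 of 15002 genes (0.0333%). An unadjusted p under 0.05 was reached by 9 of 29 members against a background of 26.3% of genes. They were 4 higher in KMS (H2-Q7, H2-T22, H2-T23 and H2-Ke6; background 12.2%) and 5 lower (H2-M2, H2-Aa, H2-Ab1, H2-Eb1 and Cd74; background 14.1%). The DESeq2 Wald test on the same counts called 4 of the 29, with 11.8% of all genes, and limma-voom called 0, with 0.00667% of all genes. With a term for sex, edgeR called 2 of the 29 (H2-M2 lower and H2-Ke6 higher in KMS), beside 5.43% of all genes; H2-M2 passed the filter on low counts only through its KM libraries. The KMS and KM libraries did not overlap for 13 of 29 members, beside 60.3% of all genes. Of these, 7 members had both KMS libraries above both KM libraries (29.0% of all genes) and 6 had both below (31.3%). Of the 29 members, 12 had a positive log2 fold change (9 with library totals as the scaling, 8 without KM replicate 1, and 21 of 28 without KM replicate 2), beside 49.3% of all genes. The median log2 fold change was -0.21 over the 29 members and -0.01 over all genes tested.

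**Figure D2:**
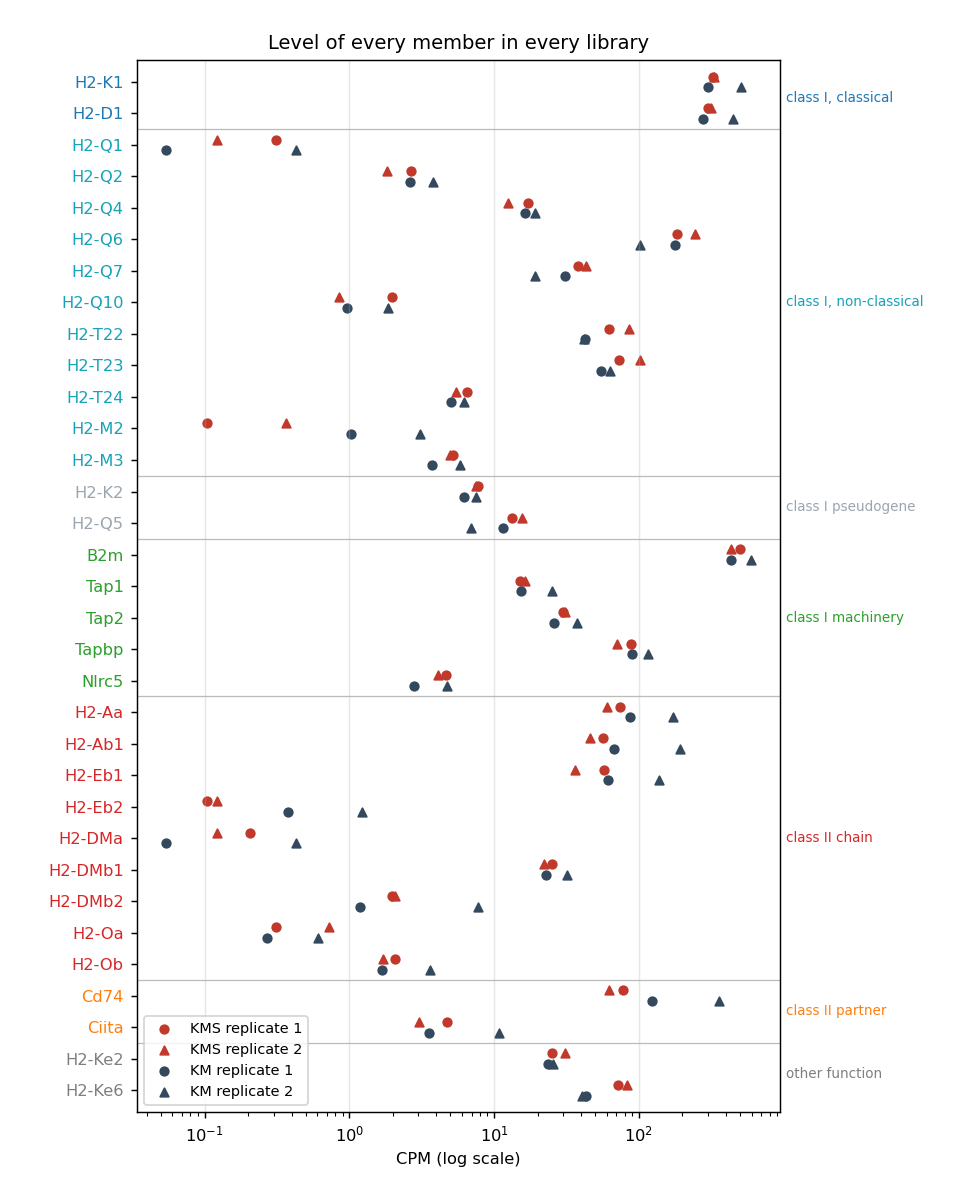
Level of all 33 members in the 4 libraries, in CPM on a logarithmic axis, with the KMS libraries drawn above the KM libraries of each gene and label colours giving the class. B2m, H2-K1 and H2-D1 lie at 278 to 593 CPM in all 4 libraries, and H2-Aa, H2-Ab1, H2-Eb1 and Cd74 are highest in KM replicate 2.

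The classical class I genes were the most abundant heavy chains, and their groups overlapped. H2-K1 (chromosome 17, 33996012 to 34000619), which encodes the K heavy chain, had 323 and 332 CPM in KMS and 301 and 508 CPM in KM. The fit gave a log2 fold change of -0.30 ± 0.30 (SE, edgeR adjusted p = 0.552). H2-D1 (35263094 to 35267497), which encodes the D heavy chain, had 302 and 317 CPM in KMS and 278 and 446 CPM in KM, with a log2 fold change of -0.23 ± 0.29 (SE, edgeR adjusted p = 0.648). For both genes KM replicate 2 was the highest library and KM replicate 1 the lowest, with the KMS libraries between them. H2-D1 was 93.6% and 95.5% of H2-K1 in KMS and 92.4% and 87.9% of it in KM, so the 2 genes kept nearly the same proportion in every library.

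Of the 12 heavy chain genes tested, 4 were higher in both KMS libraries than in both KM libraries, beside 29.0% of all genes, without passing the edgeR test. They were non-classical genes of the Q and T regions. H2-Q6 (35424850 to 35430055) and H2-Q7 (35439140 to 35443773) are Qa-2 genes, whose products are attached to the membrane by a lipid anchor or secreted. H2-Q6 had 182 and 244 CPM in KMS and 177 and 102 CPM in KM, with a log2 fold change of 0.61 ± 0.32 (SE, edgeR adjusted p = 0.274). H2-Q7 had 38.1 and 43.5 CPM in KMS and 31.0 and 19.1 CPM in KM, with a log2 fold change of 0.70 ± 0.27 (SE, edgeR adjusted p = 0.171). For both Qa-2 genes KM replicate 2 was the lowest library, the reverse of H2-K1 and H2-D1. H2-Q6 and H2-Q7 together were 35.3% and 44.3% of H2-K1 and H2-D1 together in KMS, against 36.0% and 12.7% in KM, and the groups overlapped in this proportion.

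H2-T22 and H2-T23 were higher in KMS in the female pair as in the male pair. H2-T22 (36037128 to 36042742), whose product is recognised by a subset of gamma-delta T cells, had 62.2 and 85.5 CPM in KMS and 42.8 and 42.0 CPM in KM. The fit gave it a log2 fold change of 0.80 ± 0.20 (SE, edgeR adjusted p = 0.0993), and DESeq2 called it (adjusted p = 0.0309), with adjusted p-values of 0.0309 to 0.325 over 12 other settings. H2-T23 (36029977 to 36032701), which encodes Qa-1, the ligand of the inhibitory receptor NKG2A on natural killer cells, had 72.5 and 102 CPM in KMS and 55.0 and 63.7 CPM in KM. For H2-T23 the log2 fold change came to 0.56 ± 0.22 (SE, edgeR adjusted p = 0.182). Together they were 21.6% and 28.9% of H2-K1 and H2-D1 in KMS and 16.9% and 11.1% in KM, and here the groups did not overlap. All 11 non-classical heavy chain genes summed to 389 and 501 CPM in KMS and 336 and 267 CPM in KM, a log2 ratio of 0.56. The 2 classical genes summed to 625 and 649 CPM in KMS and 579 and 954 CPM in KM, a log2 ratio of -0.27. Within the female pair both ratios were positive, at 0.21 for the non-classical and 0.11 for the classical sum. Within the male pair they were 0.91 and -0.56.

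H2-M2 was nearly undetected in KMS. It had 1 and 3 counts there and 19 and 50 counts in KM, that is 0.103 and 0.364 CPM in KMS and 1.03 and 3.06 CPM in KM. The ratio of KMS to KM over the summed counts, scaled for depth, was 0.113, with a 95% Poisson interval of 0.0299 to 0.302 that covers counting error only. The fitted log2 fold change, -3.12 ± 0.90 (SE), missed the threshold (edgeR adjusted p = 0.109). Over 11 other settings its adjusted p ran from 0.0291, in edgeR without KM replicate 1, to 0.318, in edgeR without KMS replicate 2. H2-M2 entered the test only through its KM libraries, and without KM replicate 2 it fell under the filter on low counts.

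The remaining heavy chain genes had groups that overlapped. H2-Q4, whose product can be secreted, had 17.2 and 12.4 CPM in KMS and 16.3 and 19.1 CPM in KM. H2-Q2 had 2.69 and 1.82 CPM in KMS and 2.65 and 3.80 CPM in KM. H2-Q10, a secreted class I protein made mainly by the liver, had 1.97 and 0.850 CPM in KMS and 0.972 and 1.84 CPM in KM. The low values of H2-Q2 and H2-Q10 rest on 7 to 62 counts a library. H2-T24 had 6.52 and 5.47 CPM in KMS and 5.02 and 6.18 CPM in KM. H2-M3, which presents peptides with an N-formyl methionine such as those of bacteria and mitochondria, had 5.17 and 4.98 CPM in KMS and 3.72 and 5.82 CPM in KM. H2-Q1 had 3 and 1 counts in KMS and 1 and 7 counts in KM, too few for a test. Over the 12 heavy chain genes tested, 7 had a positive and 5 a negative log2 fold change (4 and 8 with library totals as the scaling or without KM replicate 1, and 9 and 2 without KM replicate 2), with a median of 0.06.

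The 2 class I loci annotated as pseudogenes gave counts as well. H2-Q5 had 13.3 and 15.7 CPM in KMS and 11.6 and 6.98 CPM in KM, and its log2 fold change of 0.64 ± 0.32 (SE, edgeR adjusted p = 0.257) was close to that of H2-Q6 and H2-Q7. H2-K2 had 7.76 and 7.53 CPM in KMS and 6.21 and 7.47 CPM in KM. The class I genes are close copies, and the sources used here do not say how reads that match several of them were counted. Of all stretches of 150 bases in annotated transcripts, the length of a read, at most 5.99% were identical in another gene for any class I heavy chain gene (H2-Q6, shared with H2-Q7). At 50 bases the shared part was 36.4% for H2-Q5, 34.5% for H2-T22, 32.0% for H2-Q6 and 26.4% for H2-Q7, so these values are less certain than those of H2-K1 (9.63%) and H2-D1 (12.8%). H2-T22 also overlaps a gene on the opposite strand, A930015D03Rik, over 29.4% of its exon bases.

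The class I machinery overlapped between the genotypes in 4 of 5 genes, so that 1 of 5 did not, beside 60.3% of all genes. None of the 5 passed the test in edgeR, DESeq2 or limma-voom, which called 0.0333%, 11.8% and 0.00667% of all genes. At an unadjusted p under 0.05 the edgeR count was also 0, beside 26.3% of all genes. B2m (chromosome 2, 122147687 to 122153082), the light chain of every class I molecule, had 496 and 436 CPM in KMS and 430 and 593 CPM in KM, with a log2 fold change of -0.13 ± 0.26 (SE, edgeR adjusted p = 0.781). It amounted to 48.9% and 37.9% of the heavy chain sum in KMS and 47.0% and 48.6% in KM, so light chain and heavy chain RNA kept a similar proportion in 3 of the 4 libraries and a lower one in KMS replicate 2. Tap1, a subunit of the peptide transporter, had 15.1 and 16.4 CPM in KMS and 15.4 and 25.1 CPM in KM. Tap2, the other subunit, had 30.1 and 31.0 CPM in KMS and 25.9 and 37.5 CPM in KM. Both transporter subunits followed the order of H2-K1 in KM, with replicate 2 the highest library. Tapbp encodes tapasin, which holds empty class I molecules at the transporter, and had 88.4 and 70.6 CPM in KMS and 89.5 and 115 CPM in KM. It was the machinery gene without overlap, although KMS replicate 1 and KM replicate 1 were nearly equal, with a log2 fold change of -0.36 ± 0.22 (SE, edgeR adjusted p = 0.329). Nlrc5, the class I coactivator, had 4.65 and 4.13 CPM in KMS and 2.81 and 4.71 CPM in KM, with a log2 fold change of 0.23 ± 0.40 (SE, edgeR adjusted p = 0.747).

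Of the 6 class II chain genes tested, 3 were lower in both KMS libraries than in both KM libraries, beside 31.3% of all genes. They were the most abundant ones, and none passed the edgeR test. H2-Aa (chromosome 17, 34282744 to 34287823), the A alpha chain, had 74.6 and 59.9 CPM in KMS and 87.3 and 173 CPM in KM, with a log2 fold change of -0.95 ± 0.34 (SE, edgeR adjusted p = 0.153). H2-Ab1 (34263227 to 34269418), the A beta chain, had 56.9 and 46.2 CPM in KMS and 67.3 and 191 CPM in KM, with a log2 fold change of -1.33 ± 0.47 (SE, edgeR adjusted p = 0.150; DESeq2 adjusted p = 0.0366). H2-Eb1 (34305867 to 34316674), the E beta chain, had 57.5 and 36.0 CPM in KMS and 60.9 and 138 CPM in KM, with a log2 fold change of -1.08 ± 0.42 (SE, edgeR adjusted p = 0.175). In all 3 genes KM replicate 1 lay near KMS replicate 1 and KM replicate 2 far above the other libraries. Without KM replicate 1 all 3 passed the edgeR test, at adjusted p = 0.0173 for H2-Aa, 0.00400 for H2-Ab1 and 0.0164 for H2-Eb1, in a fit that called 11.5% of all genes. Without KM replicate 2 their adjusted p-values were 0.600, 0.567 and 0.636 in edgeR, the highest over the other settings. Each of these fits leaves a lone KM library, which is assumed to vary like the KMS pair. H2-Ab1 was 76.3% and 77.1% of H2-Aa in KMS and 77.1% and 111% in KM, so the 2 partner chains held their proportion in 3 libraries and departed from it in KM replicate 2.

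The other class II chains were low or overlapped. H2-DMb1, a beta chain of the peptide editor H2-DM, had 25.0 and 22.2 CPM in KMS and 22.7 and 32.0 CPM in KM, with a log2 fold change of -0.21 ± 0.23 (SE, edgeR adjusted p = 0.602). H2-DMb2, the second beta chain gene, had 1.97 and 2.07 CPM in KMS and 1.19 and 7.78 CPM in KM. H2-Ob, the beta chain of H2-DO, which restrains H2-DM, had 2.07 and 1.70 CPM in KMS and 1.67 and 3.61 CPM in KM. In each of these genes KM replicate 2 was the highest library and the other 3 lay close together. H2-DMb1 and H2-DMb2 share 22.7% and 24.8% of their stretches of 50 bases with other genes, mostly with each other. H2-Eb2 had 1 and 1 counts in KMS and 7 and 20 in KM, a depth-scaled ratio of 0.144 (95% Poisson interval 0.0166 to 0.574, counting error only). H2-Oa, the alpha chain of H2-DO, had 3 and 6 counts in KMS and 5 and 10 in KM. H2-DMa, the alpha chain of H2-DM, had 2 and 1 counts in KMS and 1 and 7 in KM, although its partner H2-DMb1 had 183 to 522 counts a library. A gene on the opposite strand, Brd2, overlaps H2-DMa over 10.4% of its exon bases, and the cause of the low counts was not tested. All 6 class II chain genes tested had a negative log2 fold change, with a median of -1.02, but without KM replicate 2 those of H2-DMb1, H2-DMb2 and H2-Ob were positive. The median of the same 6 genes was 0.03 within the female pair and -1.60 within the male pair.

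Cd74 showed the lowest level in KMS relative to KM among the class II genes tested. It lies on chromosome 18 (60803849 to 60812652) and encodes the invariant chain. Cd74 had 77.9 and 62.2 CPM in KMS and 124 and 357 CPM in KM, and both KMS libraries lay below both KM libraries. Its log2 fold change was -1.78 ± 0.49 (SE), with an adjusted p of 0.105 in edgeR and of 0.00243 in DESeq2. Over all other settings its adjusted p ran from 0.00165, in edgeR without KM replicate 1, to 0.344, in edgeR without KMS replicate 2. The log2 ratio was -0.67 within the female pair and -2.51 within the male pair. Cd74 also differed in proportion to the chains it assembles with: it was 35.6% and 36.8% of the class II chain sum in KMS and 51.3% and 65.2% in KM, with no overlap between the groups. Ciita, the class II coactivator, had 4.76 and 3.04 CPM in KMS and 3.56 and 10.9 CPM in KM, with a log2 fold change of -0.88 ± 0.59 (SE, edgeR adjusted p = 0.376). For Ciita KM replicate 2 again was the highest library and the groups overlapped.

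**Figure D3:**
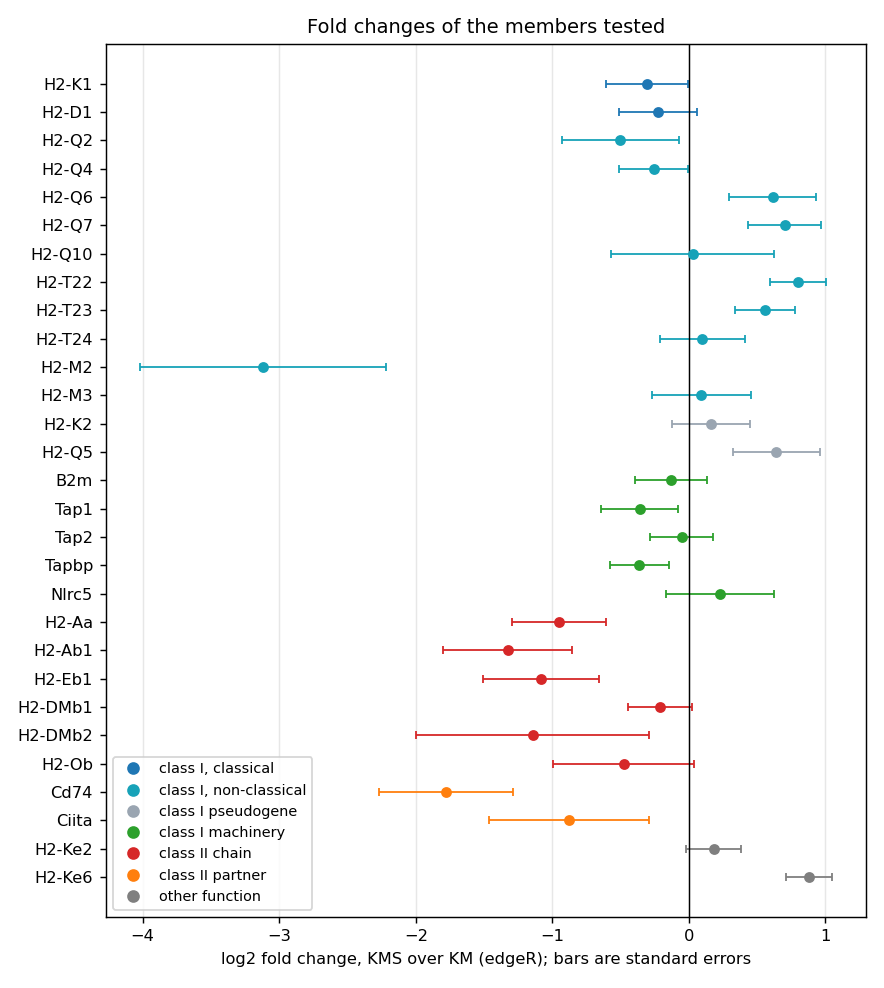
Log2 fold change of KMS over KM for the 29 members tested, with bars of 1 standard error from edgeR and colours for the class. The 6 class II chains and their 2 partners all lie below 0, and the class I heavy chains lie on both sides of it, from -3.12 for H2-M2 to 0.80 for H2-T22.

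Most of the leukocyte markers tested had a negative log2 fold change, as the class II genes did. Of the 23 leukocyte markers tested, in 5 lists, 2 had a positive and 21 a negative log2 fold change. In edgeR 0 of them passed the test (background 0.0333%), and 14 were lower at an unadjusted p under 0.05 (background 14.1%). DESeq2 called 12 (background 11.8%) and limma-voom 0 (background 0.00667%). With a term for sex, edgeR called 3 (background 5.43%). The pan-leukocyte list of 6 genes summed to 105 and 63.2 CPM in KMS and 148 and 238 CPM in KM. The macrophage list of 9 genes summed to 240 and 136 CPM in KMS and 320 and 587 CPM in KM. Those of dendritic cells (8.07 and 6.68 CPM in KMS, 11.1 and 26.7 CPM in KM) and B cells (3.83 and 4.49 CPM in KMS, 3.99 and 17.3 CPM in KM) were at lower levels. The B cell sums of the groups overlapped. Itgax was the largest part of the dendritic cell sum, at 5.28 and 2.79 CPM in KMS and 8.31 and 20.8 CPM in KM. Of the other dendritic cell genes, Clec10a did not overlap between the groups, and Flt3, Xcr1, Clec9a, Ccr7 and Cd209a did. T and natural killer cell markers summed to 5.69 and 3.52 CPM in KMS and 13.0 and 10.5 CPM in KM. Cd8a was the largest part of this sum in every library, at 10.7 and 5.27 CPM in KM, and its groups did not overlap. Of the other genes of this list, Cd3e did not overlap between the groups, and Cd3d, Cd4 and Nkg7 did. The log2 fold change of Nkg7 was positive, at 0.31. KM replicate 2 was the highest library of every leukocyte list except that of T and natural killer cells, where Cd8a was highest in KM replicate 1.

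Set against these markers, the summed RNA of the 9 class II chain genes was not lower in KMS. The class II sum per CPM of all 32 leukocyte markers was 0.604 and 0.791 in KMS and 0.487 and 0.622 in KM, and the groups overlapped. Per CPM of Ptprc, the gene of the pan-leukocyte surface protein CD45, it was 7.39 and 9.03 in KMS and 5.18 and 7.83 in KM. The groups also overlapped per CPM of the macrophage list and of the pan-leukocyte list. Per CPM of the dendritic cell list it was 27.1 and 25.3 in KMS and 21.7 and 20.5 in KM, without overlap. The log2 ratio of the first of these proportions was 0.31 in the female and 0.35 in the male pair. That of the class II sum itself was -0.15 and -1.70. This sum does not include Cd74. Cd74 had log2 ratios of -0.67 and -2.51 in these pairs, beside -0.46 and -2.04 for the sum of the leukocyte markers. Marker sums of other cell types had log2 ratios of 1.15 for the proximal tubule, 0.93 for the distal nephron, 0.66 for podocytes, -0.17 for endothelium and -0.99 for fibroblasts. The endothelial sums of the groups overlapped, and of the 27 genes in these 5 lists 0 passed the test in edgeR or limma-voom, 8 reached an unadjusted p under 0.05 in edgeR (background 26.3%) and DESeq2 called 9 (background 11.8%). The part of these differences in the values of the class I and class II genes was not tested.

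The female and the male pair of libraries gave different pictures for much of the set. The median log2 ratio of the 29 members was 0.19 within the female pair and -0.51 within the male pair, where all genes tested had medians of -0.01 and -0.01. H2-K1 had a log2 ratio of 0.10 in the female and -0.61 in the male pair, and B2m of 0.21 and -0.44. H2-T22 (0.53 and 1.02), H2-T23 (0.40 and 0.68) and H2-Q7 (0.29 and 1.17) were higher in KMS in both pairs. H2-Aa (-0.23 and -1.52), H2-Ab1 (-0.24 and -2.04) and H2-Eb1 (-0.08 and -1.92) were lower in both, by far more in the male pair. With 1 library per genotype and sex, the difference between the pairs cannot be tested, and sex and library cannot be told apart.

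**Figure D4:**
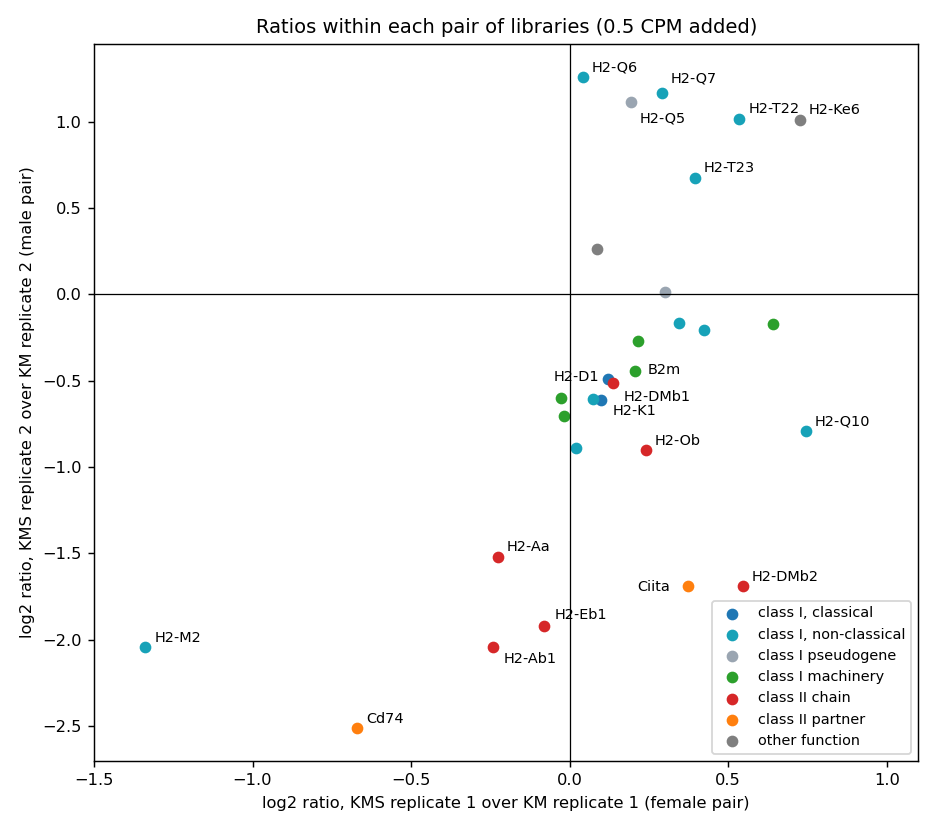
Log2 ratio of KMS over KM within the female pair (horizontal axis, replicate 1) and within the male pair (vertical axis, replicate 2) for the 29 members tested, after adding 0.5 CPM. The class II genes lie low on the vertical axis, down to -2.51 for Cd74, while H2-Q6, H2-Q7, H2-Q5, H2-T22 and H2-T23 lie above 0 on both axes.

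Levels of different genes were compared per kilobase of the principal transcript. B2m was highest, at a mean of 542 CPM per kilobase in KMS and 594 in KM, and H2-K1 (202 in KMS and 250 in KM) and H2-D1 (147 in KMS and 172 in KM) came next in both groups. In KMS the Qa-2 gene H2-Q6 followed at 102 CPM per kilobase, above H2-Aa at 59.6, H2-T23 at 59.3 and Cd74 at 49.7. In KM it stood at 66.8, and Cd74 at 171, H2-Aa at 115 and H2-Ab1 at 107 were above it. That order in KM rests on KM replicate 2: in KM replicate 1 H2-Q6 was at 85.0 CPM per kilobase, Cd74 at 88.1, H2-Aa at 77.4 and H2-Ab1 at 55.5, and in KM replicate 2 they were at 48.7, 253, 153 and 158. The libraries of H2-Aa overlapped with those of H2-T23 and Cd74 in KMS. In KM those of Cd74 overlapped with H2-K1 and H2-D1, those of H2-K1 with H2-D1, and those of H2-Q6, H2-Aa and H2-Ab1 with one another. H2-T22 was at 41.9 CPM per kilobase in KMS and 24.1 in KM, and H2-Ab1 was at 42.5 in KMS.

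The upstream regions were searched for elements that are known to control class I and class II transcription, and some are printed for genes of the patterns above. RefSeq tables of GRCm38.p6 held the 250 bases before a transcript start for 24 of the 33 members. For 10 of the 24, exons or the span of the gene's other annotated transcripts cover more than 30 of these bases, so that part or all of the window lies inside the gene. They are H2-K1, H2-D1, H2-Q2 and H2-T23 of class I, H2-DMa, H2-DMb1, H2-DMb2, H2-Eb2 and H2-Oa of class II, and Tapbp. Both strands were searched for CCAAT (the Y box of the SXY module), TGATGA and TGACG (forms of the core of its X2 box, which can overlap as in TGATGACG) and GGGATTCCC (a kappaB site). The interferon-stimulated response element was searched in its full core (TTTC, any pair of bases, TTTC) and in TTTCNNTTC, the shorter form of class I promoters, and no member held both. In the lines below, capitals mark these motifs on either strand, and each sequence runs 5′ to 3′ on the strand of its gene. H2-Q6 and H2-Q7 stand for the non-classical class I genes that were higher in both KMS libraries, B2m for the light chain, and H2-Aa and H2-Eb1 for class II. The last 15 bases of the H2-Q7 window lie within the annotated gene.
H2-Q6 (chr17:35424600-35424849, plus strand): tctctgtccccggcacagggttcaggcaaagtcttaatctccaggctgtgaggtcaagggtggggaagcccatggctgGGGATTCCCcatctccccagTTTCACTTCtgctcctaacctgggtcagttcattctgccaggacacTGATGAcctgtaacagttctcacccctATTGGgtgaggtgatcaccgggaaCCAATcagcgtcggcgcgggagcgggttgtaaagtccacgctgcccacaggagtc
H2-Q7 (chr17:35438905-35439154, plus strand): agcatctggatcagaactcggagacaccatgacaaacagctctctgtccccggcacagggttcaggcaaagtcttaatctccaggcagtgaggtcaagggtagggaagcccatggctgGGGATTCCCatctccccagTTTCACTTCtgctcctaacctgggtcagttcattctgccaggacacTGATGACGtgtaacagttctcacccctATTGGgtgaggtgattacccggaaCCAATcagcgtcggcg
B2m (chr2:122147437-122147686, plus strand): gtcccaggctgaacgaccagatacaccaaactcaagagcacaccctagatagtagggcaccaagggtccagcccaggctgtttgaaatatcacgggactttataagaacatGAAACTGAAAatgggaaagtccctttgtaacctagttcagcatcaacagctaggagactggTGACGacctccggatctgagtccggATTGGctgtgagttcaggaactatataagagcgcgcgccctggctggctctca
H2-Aa (chr17:34287824-34288073, minus strand): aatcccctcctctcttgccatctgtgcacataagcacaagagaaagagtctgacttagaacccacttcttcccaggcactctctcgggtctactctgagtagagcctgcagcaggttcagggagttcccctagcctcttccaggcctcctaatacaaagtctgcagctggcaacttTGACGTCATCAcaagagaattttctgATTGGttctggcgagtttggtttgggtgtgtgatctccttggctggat
H2-Eb1 (chr17:34305617-34305866, plus strand): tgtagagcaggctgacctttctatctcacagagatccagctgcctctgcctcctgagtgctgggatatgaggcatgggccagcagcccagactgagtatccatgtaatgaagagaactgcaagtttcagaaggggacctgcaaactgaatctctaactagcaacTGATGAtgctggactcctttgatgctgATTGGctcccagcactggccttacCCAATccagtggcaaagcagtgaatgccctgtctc

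H2-Q6 and H2-Q7 share the kappaB site followed by the same interferon element, TTTCACTTC, and then the X2 and Y boxes. B2m has the full interferon core on the opposite strand, then TGACG and a Y box. In H2-Aa and H2-Eb1 an X2 box is followed by a Y box, and neither the kappaB site nor either interferon form was found. Among the 11 class I heavy chain genes with a window, 8 held TTTCNNTTC, against 6.31% of 32851 windows of the same length, 10 held CCAAT, against 33.8%, and 8 held an X2 core, against 26.5%. The full core was in H2-T22 and H2-T23 among these 11, and in 2.98% of all windows, and 8.82% of all windows held either form. GGGATTCCC was in 4 of the 11 (H2-K1, H2-D1, H2-Q6 and H2-Q7), against 0.301% of all windows. Among the 8 class II chain genes with a window, 7 held CCAAT, 3 an X2 core, and 0 either interferon form or GGGATTCCC. H2-DMa held none of the motifs, but all 250 bases of its window lie inside its own gene. The windows of H2-DMb1, H2-DMb2, H2-Eb2 and H2-Oa also lie partly or wholly inside the gene. In such windows an absent motif may not describe the promoter. B2m, Tap1 and Tapbp all held CCAAT, B2m and Tap1 TGACG, and B2m the full interferon core. A link between the motifs and the expression of these genes was not tested. These matches describe the letters in each window, and the class I genes are close copies, so their matches are not independent of one another.

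H2-Ke6 and H2-Ke2 lie in the MHC region and do not present antigen. H2-Ke6 (chromosome 17, 34026033 to 34028055), also called Hsd17b8, is a dehydrogenase of steroid and fatty acid metabolism, and had 71.6 and 82.2 CPM in KMS and 43.1 and 40.5 CPM in KM. Both KMS libraries lay above both KM libraries, and its log2 fold change was 0.88 ± 0.17 (SE), with an adjusted p of 0.0823 in edgeR, the lowest of the members, and of 0.00402 in DESeq2, with a highest value of 0.318 in edgeR without KMS replicate 2. A read-through gene, Gm20427, covers 86.4% of its exon bases on the same strand, so its count depends on how such reads were assigned. H2-Ke2, a subunit of the chaperone prefoldin, had 25.0 and 30.9 CPM in KMS and 23.5 and 25.7 CPM in KM, with a log2 fold change of 0.18 ± 0.20 (SE, edgeR adjusted p = 0.596).

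Other genes of antigen presentation were read from the same fit, in 6 lists of known function, and 0 of their 45 tested genes had an adjusted p under 0.05 in edgeR or limma-voom, while 11 reached an unadjusted p under 0.05 in edgeR (background 26.3%) and DESeq2 called 3 (background 11.8%). In the list of peptide supply and loading (immunoproteasome subunits, the peptidase Erap1 and chaperones), 4 of 10 genes had a positive and 6 a negative log2 fold change, with a median of -0.09, and 0 reached an unadjusted p under 0.05. Its 2 genes of smallest p were Tapbpl, a second peptide editor of class I, at 16.8 and 14.6 CPM in KMS and 10.9 and 12.6 CPM in KM, and Canx, the chaperone calnexin, at 443 and 450 CPM in KMS and 548 and 576 CPM in KM. Among 8 genes of class II processing, 1 was higher and 1 lower at an unadjusted p under 0.05, and DESeq2 called both. Ctss, the protease cathepsin S that trims the invariant chain in antigen-presenting cells, had 7.76 and 3.77 CPM in KMS and 14.6 and 29.2 CPM in KM, with a log2 fold change of -1.92 ± 0.47 (SE, edgeR adjusted p = 0.0971). March8, a ubiquitin ligase that can remove class II from the cell surface, had 204 and 231 CPM in KMS and 147 and 122 CPM in KM, with a log2 fold change of 0.69 ± 0.21 (SE, edgeR adjusted p = 0.115).

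Among the 7 factors that bind the SXY module, 3 had a positive and 4 a negative log2 fold change. In edgeR 1 reached an unadjusted p under 0.05 (background 26.3%). That gene was Rfx5, a subunit of the RFX complex on the X box, with 17.8 and 18.5 CPM in KMS and 28.8 and 30.1 CPM in KM. Rfx5 had a log2 fold change of -0.70 ± 0.19 (SE, edgeR adjusted p = 0.102), and its ratios in the female and male pairs were nearly equal, at -0.68 and -0.69. Rfxank, another subunit of the complex, had 12.9 and 9.84 CPM in KMS and 8.48 and 6.92 CPM in KM. In the list of interferon-gamma signalling 2 of 10 genes had a positive and 8 a negative log2 fold change, with a median of -0.46. Among the 8 is Socs1, with 4 and 6 counts in KMS and 22 and 21 in KM, which passed the filter on low counts only through its KM libraries. In edgeR 3 of the 10 were lower at an unadjusted p under 0.05 (background 14.1%). Irf2, a repressor of interferon responses, had 1.65 and 1.34 CPM in KMS and 3.89 and 3.49 CPM in KM. Jak2, a kinase of the interferon-gamma receptor, had 32.7 and 35.5 CPM in KMS and 41.6 and 96.0 CPM in KM.

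MHC-like genes outside the H2 region did not share a direction, with 3 positive and 3 negative log2 fold changes among 6 tested. Fcgrt, the heavy chain of the neonatal Fc receptor, which pairs with B2m and carries IgG and albumin in kidney epithelium, had 239 and 276 CPM in KMS and 148 and 111 CPM in KM. Its log2 fold change was 0.99 ± 0.23 (SE), with an adjusted p of 0.0930 in edgeR, and it was the 1 gene of the list that DESeq2 called. Azgp1, a soluble MHC-like protein, had 13.7 and 80.7 CPM in KMS and 11.7 and 10.5 CPM in KM, so its difference came from KMS replicate 2. Among 4 co-stimulatory and co-inhibitory ligands tested, 1 had a positive and 3 a negative log2 fold change. Cd86, the co-stimulatory ligand of CD28, had 2.07 and 1.21 CPM in KMS and 3.99 and 4.41 CPM in KM. Icosl, the ligand of ICOS, had 5.90 and 5.71 CPM in KMS and 8.91 and 9.67 CPM in KM. Both were below KM in both KMS libraries (31.3% of all genes). In edgeR 2 genes of this list reached an unadjusted p under 0.05 (background 26.3%).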

How the data were processed

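Total RNA was selected on poly(A) tails, made into directional libraries and read as pairs of 150 bases, per the labels' protocols. Tools in the submitters' processing notes, given without roles, are HISAT2, StringTie, FastQC, Trimmomatic 0.35, cutadapt 1.9.1 and MACS2 2.1.1, with the genome build GRCm38 (mm10). The read counter, its use of strand and its handling of multiply matching reads were not given in the sources used here. As their data, the authors deposited raw read counts of 18383 genes for 4 libraries, per the file headers. Further columns hold, per the file headers, the authors' own mean signal of each group, their fold change as a ratio, its log2 value, and a p-value and adjusted p-value from an unnamed test. None of these was used for the results.

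The test on counts was that of edgeR 4.0.16 under R 4.3.3 (TMM factors, filterByExpr with a minimum count of 10 and a minimum total of 15, quasi-likelihood F test, genotype as the only term, all 4 libraries). P-values were adjusted by Benjamini-Hochberg over the 15002 genes tested, with calls under 0.05, and standard errors come from the F statistic. A positive log2 fold change means higher in KMS. CPM are counts divided by the TMM-scaled total and multiplied by 1e+06, and 0.5 CPM was added for ratios within a pair. With the TMM-scaled totals, 3 counts were worth 0.162 to 0.364 CPM, depending on the library. The labels do not tie libraries to animals; each group holds a female and a male library, so the 2 libraries of a group are of different animals and the spread within a group includes sex. Alternatives were other scalings, no filter, DESeq2 1.42.0, limma-voom (limma 3.58.1), a replicate block and each library left out. The fits were also tested on simulated counts with 100 changes of 2-fold and 100 of 4-fold, all in genes with a mean above 1 CPM. Of these changes, edgeR recovered 9 and 78, with a sex term 10 and 77, DESeq2 18 and 79, and limma-voom 6 and 76. Unchanged genes called were 11, 20, 24 and 12, in the same order. The simulated counts held no difference between the sexes, so they cannot show what a sex term does in these data.

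Every member is named, with values in each library at a mean of 1 CPM or more; other lists give their 2 genes of smallest p, and further named genes were chosen after their values were seen. The members and lists were chosen with earlier results of these data known. Positions and upstream sequences are from RefSeq (GRCm38.p6), and transcript lengths, overlaps and shared stretches from GENCODE annotation of GRCm38.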

Additional observations from a re-analysis of the deposited data

Results flagged for a closer look

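For 14 of the 29 members tested (48.3%) the log2 ratio of KMS over KM was positive in the female pair (replicate 1) and negative in the male pair (replicate 2), beside 14.3% of all genes tested. H2-Q1 (0.55 and -0.58) and H2-DMa (0.35 and -0.58), with too few counts for a test, had the same signs. The difference between the pairs was not tested, since each sex has 1 library per genotype. Among the class I heavy chain genes, the female and male ratios were 0.10 and -0.61 for H2-K1, 0.12 and -0.49 for H2-D1, 0.02 and -0.89 for H2-Q2, 0.07 and -0.60 for H2-Q4, 0.74 and -0.79 for H2-Q10, 0.35 and -0.16 for H2-T24, and 0.42 and -0.20 for H2-M3. In the class I machinery they were 0.21 and -0.44 for B2m, 0.22 and -0.27 for Tap2, and 0.64 and -0.17 for Nlrc5. In class II they were 0.14 and -0.51 for H2-DMb1, 0.55 and -1.69 for H2-DMb2, 0.24 and -0.90 for H2-Ob, and 0.37 and -1.69 for Ciita.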

How the results depend on the processing

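Under 12 other settings, 315 of 347 values of single members kept their direction and their side of the threshold, 13 passed it newly and 19 reversed, 15 of these with a library left out. The edgeR fit called 5 genes, 3 with library totals as the scaling, 2 without mitochondrial genes, and 0 to 1786 with a library left out; DESeq2 called 1767 and limma-voom 1. Members called were 0, against 4 with DESeq2 (H2-T22, H2-Ab1, Cd74 and H2-Ke6) and 0 to 7 with a library left out; the 7 came without KM replicate 1, where 11.5% of all genes were called. A replicate block, which here equals a term for sex, called 815 genes (5.43%) and 2 members, H2-M2 (adjusted p = 0.0487) and H2-Ke6 (adjusted p = 0.0488). The labels do not say that the numbers pair libraries, and the deviations of same-numbered libraries correlated at 0.112 across 15002 genes. Library totals moved the median log2 fold change of all genes to -0.13. The class I log2 ratio of 0.02 became -0.12 with library totals, -0.045 with upper-quartile factors, -0.27 with only H2-K1 and H2-D1 (chosen after seeing the data), and -0.16 to 0.25 with a library left out. The class II ratio of -1.03 ranged from -1.49 to -0.32 and that of class II to class I from -1.31 to -0.54 with a library left out. H2-Q10 reversed to -0.031 with upper-quartile factors and -0.10 with library totals, where H2-T24 was -0.028 and H2-M3 -0.045. With a library left out, ranges spanning 0 were -0.62 to 0.13 for H2-K1, -0.51 to 0.16 for H2-D1, -0.68 to 0.55 for H2-Q10, -0.031 to 0.26 for H2-T24, -0.18 to 0.45 for H2-M3, -0.33 to 0.12 for B2m, -0.66 to 0.039 for Tap1, -0.28 to 0.24 for Tap2, -0.088 to 0.65 for Nlrc5, -0.42 to 0.061 for H2-DMb1, -1.93 to 0.76 for H2-DMb2, -0.92 to 0.18 for H2-Ob and -1.46 to 0.14 for Ciita. The causes were not tested. H2-Q1, H2-Eb2, H2-DMa and H2-Oa had too few counts to be tested at this depth, and H2-M2 gave no value without KM replicate 2.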
